A study of Mus musculus with 8 samples.

Results

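The genes described here encode the protein machinery that releases neurotransmitter and peptide from vesicles, with the priming factor gene Cadps2 among them. They were chosen by symbol alone, as the synaptotagmins (Syt), the calcium-dependent activator proteins for secretion (Cadps, Cadps2), the complexins (Cplx), syntaxins (Stx), RIM scaffolds (Rims), SNAP proteins (Snap), synapsins (Syn), vesicle glycoproteins (Sv2), vesicle-associated membrane proteins (Vamp) and UNC13 priming factors. The rule matched 60 of the 15705 genes in the deposited table, and all 60 passed the filter on low values. The RNA-seq libraries were made from polyadenylated RNA of mouse lateral ganglionic eminence (LGE), the part of the embryonic brain that produces the striatal projection neurons, at E18.5, shortly before birth. There were 4 libraries of Isl1 conditional knockout embryos (cKO, genotype Dlx1-Cre; Isl1 flx/flx) and 4 of littermate controls (genotype Isl1 flx/flx). Both groups therefore carry 2 floxed alleles of Isl1, a LIM-homeodomain transcription factor gene, and the Cre recombinase, driven from Dlx1 in forebrain GABAergic lineages, was present in the cKO alone. Cre and the deletion cannot be told apart, and Isl1 is deleted only in cells with a history of Dlx1-driven Cre. The LGE was dissected and the genotype read embryo by embryo, per the labels' protocols, which do not say whether a library holds tissue of 1 embryo or several.

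Vesicle release depends on a membrane fusion engine made of SNARE proteins. A VAMP on the vesicle pairs with a syntaxin and a SNAP protein on the plasma membrane, and the assembly of these proteins pulls the membranes together. UNC13 proteins and the CAPS proteins (from Cadps and Cadps2) prepare, or prime, vesicles for fusion, the CAPS proteins mainly for dense core vesicles, which carry peptides and growth factors. RIM proteins hold vesicles and calcium channels at the active zone, synaptotagmins with calcium-binding C2 domains trigger fusion, complexins hold partly assembled SNAREs ready, synapsins tether the vesicle reserve, and SV2 proteins are glycoproteins of the vesicle membrane. In the striatum this machinery serves GABA and peptide release by projection neurons and acetylcholine release by interneurons.

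The values are read values per gene that the authors scaled and adjusted before deposit, rounded to whole numbers, so sequencing depth is unknown and no counting interval is given. They summed to between 24202515 and 24456923 in the cKO libraries and between 23732455 and 24419880 in the controls. Because 1 unwanted factor had been removed from every gene, the SDs, SEs and limma p-values below are too small to a degree. Isl1 itself had values of 4930, 5377, 5618 and 5971 in the libraries labelled cKO, against 3777, 3692, 4186 and 3517 in those labelled control, so the transcript is higher where it is labelled as deleted. Since the labels do not say which part of the gene Cre removes, the value does not check the genotypes, and cKO and control below mean the libraries so labelled. Of 12 marker genes of the striatum and LGE, such as Gad1, Foxp1 and Bcl11b, none was at 0 in any library, and their summed level lay between 909 and 956 RPKM (the value scaled to library sum and gene length) in the cKO and between 871 and 906 RPKM in the controls. Of these 12, Meis2, Dlx6 and Dlx5 rose (log2 fold changes 0.34, 0.33 and 0.24) and Ppp1r1b and Rarb fell (-0.74 and -0.40), all past the limma test used below. The 11 pallial neuron markers were lowest in cKO replicate 4, at a summed 4.50 RPKM, and control replicate 3, at 2.12 RPKM, against 12.3 to 22.0 RPKM in the other 6 libraries. Over all 15698 genes tested, 6.66% passed the test between cKO and control, which was limma on log2(value + 1) with a Benjamini-Hochberg adjusted p under 0.05.

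Most of the 60 release genes in the deposited table were above 1 RPKM in control LGE at this age. Genes of these families that are missing from it, such as Cplx3, Cplx4 and Syt8, are not counted. In controls, 32 of the 60 genes were at 10 RPKM or more, and 10 were at 1 RPKM or less. Vamp2, the main vesicle SNARE of the forebrain, had the highest level per length, with 107 ± 5.52 RPKM in the cKO and 110 ± 3.66 RPKM in controls (SD, n = 4 each, as for every level below). The synaptotagmin genes Syt4, Syt11 and Syt5 followed among the highest, with control levels of 93.5, 92.6 and 78.0 RPKM, while Syt1, the main calcium sensor for fast release, was at 30.4 ± 1.30 RPKM in the cKO and 31.8 ± 2.01 RPKM in controls. The highest syntaxin was Stx12, an endosomal form, at 94.1 ± 4.49 RPKM in the cKO and 90.8 ± 3.06 RPKM in controls, and the highest SNAP protein gene was Snap47, at 85.9 ± 4.23 RPKM in the cKO and 86.3 ± 1.34 RPKM in controls. Snap25, the SNARE of neurotransmitter release, was at 50.9 ± 2.90 RPKM in the cKO and 56.3 ± 3.11 RPKM in controls. At the low end were Unc13d, Stx11, Syt15, Vamp5 and Syt2, with group means between 0.125 and 0.287 RPKM.

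**Figure D1:**
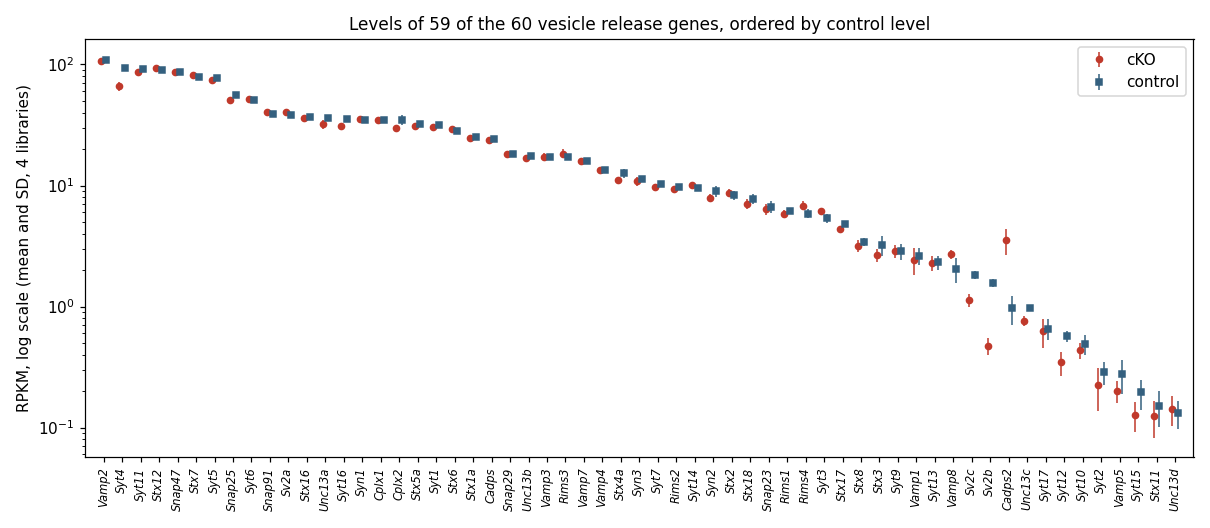
Mean level with SD over 4 libraries of 59 of the 60 vesicle release genes, in RPKM on a log axis, for cKO (red circles) and control (blue squares), ordered by control level. The points of most genes overlie each other, Vamp2 is highest at 107 RPKM in the cKO and 110 RPKM in controls, and Cadps2, at 3.52 RPKM in the cKO and 0.971 RPKM in controls, stands out upward.

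Of the 60 genes, 1 rose in the cKO, Cadps2, and 5 fell, Sv2b, Sv2c, Syt4, Syt12 and Syt16. That is 10% of the genes called, where 6.66% of all genes tested were called. The authors' deposited table called 1 of the 60 higher and 5 lower, against 6.55% of all its genes, and 5 of these 6 were shared. The risen gene is 1.67% of the 60, against 2.87% of all genes called higher, and the fallen genes are 8.33%, against 3.78% of all genes called lower. At an unadjusted p under 0.05 there were 19 of the 60, against 18.7% of all genes. Values of cKO and control did not overlap in 10 of the 60, against 12.7% of all genes. The median log2 fold change of the 60 was -0.05, against 0.01 over all genes tested, and 37 of them (61.7%) had a fold change below 0, against 47.6% of all genes. Among the 32 genes at 10 RPKM or more in controls, 2 were called, and among the 28 below that level, 4 were. The share of all genes called at each of these levels was not computed, so these counts do not tie the calls to level. Of the 46 genes that were not called and had a mean control value of at least 100, 44 had a 95% interval of the log2 fold change inside plus or minus 0.5. In bulk tissue, fewer cells of a type and less RNA per cell cannot be told apart, and this holds for every difference given here.

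**Figure D2:**
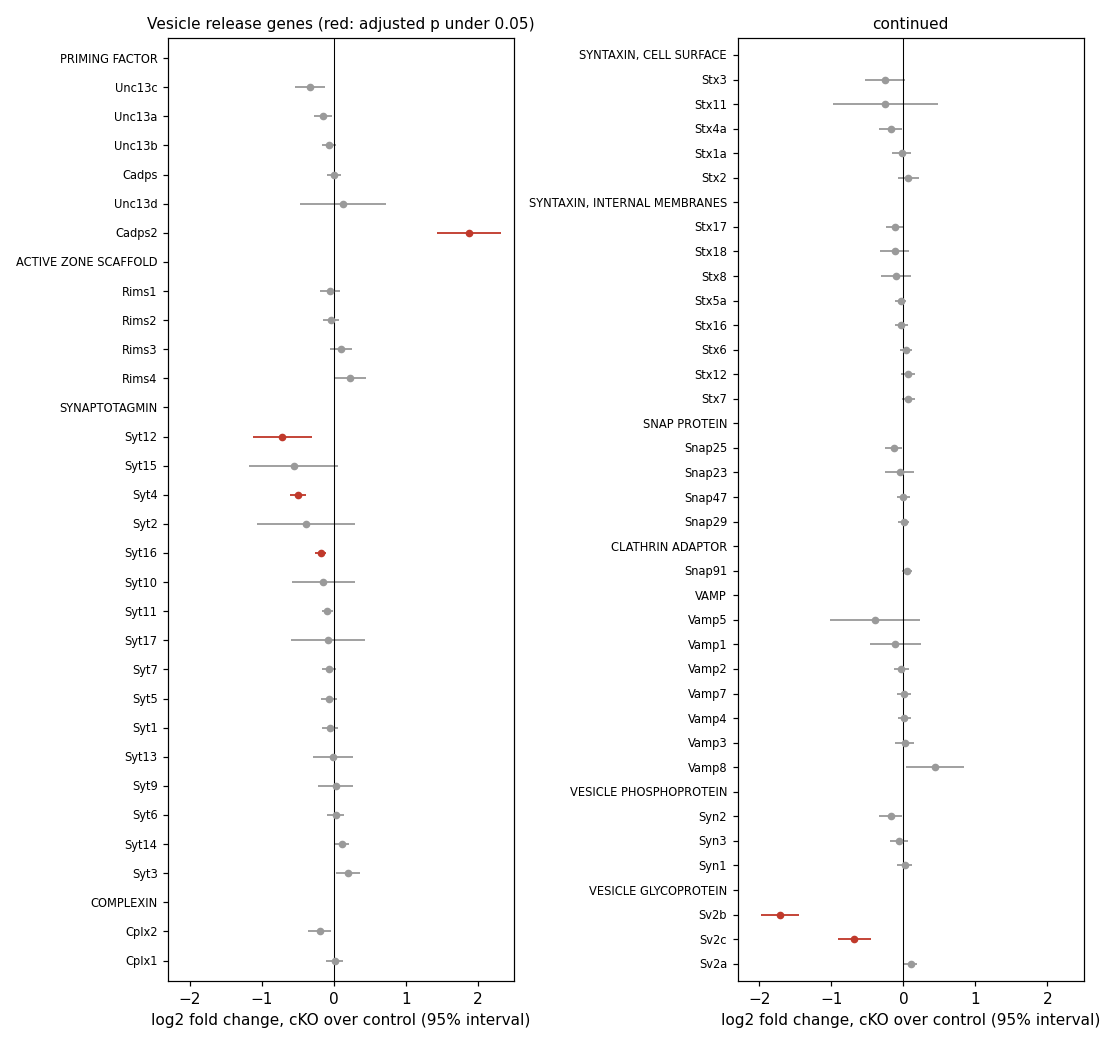
Log2 fold change of cKO over control with its 95% interval for 59 of the 60 vesicle release genes, grouped by role, with genes past the adjusted p of 0.05 in red. Cadps2 lies at 1.87, and Sv2b, Syt12, Sv2c, Syt4 and Syt16 lie between -1.71 and -0.19, while the wide intervals belong to genes of low level such as Stx11 and Syt15.

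Cadps2 was the gene that rose among the priming factors. Its protein, CAPS2, promotes release from dense core vesicles and is known in mice for secretion of neurotrophins in the cerebellum and cortex. Cadps2 had values of 412, 517, 439 and 698 in the 4 cKO libraries, against 169, 176, 96 and 125 in the controls. Every cKO value was more than the highest control value, and the cKO mean of 516.5 ± 129 was 3.65 times the control mean of 141.5 ± 37.8 (SD, n = 4 each). The log2 fold change was 1.87 ± 0.20 (SE) with a limma adjusted p of 0.000141, and the authors' deposited table gave it an adjusted p of 9.67e-16. Per length, Cadps2 reached 3.52 ± 0.858 RPKM in the cKO and 0.971 ± 0.262 RPKM in controls, and its place in the order of the 60 genes was 43 in the cKO and 51 in controls. It also varied the most between libraries of a group among the 51 genes with a mean control value of at least 100, with a coefficient of variation of 25.0% in the cKO and 26.7% in controls, where the median gene had 5.25% and 5.57%. The highest cKO value and the lowest control value came from the libraries lowest in pallial markers. Without those 2 libraries the log2 fold change was 1.54, with a limma adjusted p of 0.000592.

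The paralogue Cadps, which encodes CAPS1 and is the main form in most neurons, showed no such difference. Cadps had values of 3246, 3130, 3074 and 3396 in the cKO, against 3131, 3382, 3102 and 3234 in controls. The groups overlapped, and the log2 fold change of 0.00 had a 95% interval of -0.09 to 0.09. Of the summed RPKM of Cadps and Cadps2, Cadps2 held 10.4%, 13.1%, 11.6% and 15.8% in the cKO libraries, against 4.71%, 4.54%, 2.75% and 3.42% in controls. Cadps thus remained the more abundant of the pair in every library.

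None of the 4 UNC13 genes passed limma, with 2 of them at an unadjusted p under 0.05, where 18.7% of all genes were. The authors' deposited table called 1 lower, Unc13c, against 6.55% of all its genes called in either direction. Unc13a, whose protein primes synaptic vesicles in most forebrain neurons, was the highest at 32.0 ± 2.78 RPKM in the cKO and 35.9 ± 1.68 RPKM in controls (log2 fold change -0.16, 95% interval -0.28 to -0.03, limma adjusted p = 0.149). Unc13c, best known from cerebellar granule cells, had values of 148, 159, 128 and 164 in the cKO, against 182, 202, 188 and 182 in controls. These did not overlap, but the log2 fold change of -0.34 ± 0.10 (SE) missed the threshold with a limma adjusted p of 0.0633, and it passed in the authors' deposited table (adjusted p = 0.0396). None of the 4 RIM genes passed limma or the authors' table, with 1 at an unadjusted p under 0.05, Rims4 (log2 fold change 0.23, 95% interval 0.00 to 0.45). Rims3 was the highest of them per length, at 18.3 ± 1.56 RPKM in the cKO and 17.2 ± 0.904 RPKM in controls.

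The SV2 family split by member. SV2 proteins are transporter-like glycoproteins of synaptic and dense core vesicles that interact with synaptotagmin 1 and also serve as receptors of botulinum neurotoxin A. SV2A is widespread in brain, and SV2C is known for its restricted pattern with high levels in the adult basal ganglia. Sv2b had values of 69, 78, 57 and 58 in the cKO, against 215, 233, 193 and 223 in controls. The groups were far apart, and the cKO mean of 65.5 ± 9.95 was 0.303 of the control mean of 216 ± 17.0, a log2 fold change of -1.71 ± 0.12 (SE) with a limma adjusted p of 5.23e-06. Sv2c had values of 134, 107, 120 and 106 in the cKO, against 174, 188, 179 and 209 in controls. It too did not overlap between groups, and its log2 fold change was -0.68 ± 0.10 (limma adjusted p = 0.00175). Sv2a, by far the most abundant of the 3, had values of 3913, 3859, 3868 and 3876 in the cKO, against 3456, 3875, 3455 and 3721 in controls. Its log2 fold change of 0.10 had a 95% interval of 0.01 to 0.19 and a limma adjusted p of 0.222. Sv2a made up 96.2% ± 0.312 of the summed RPKM of the family in the cKO and 91.9% ± 0.275 in controls. Sv2c made up 2.67% ± 0.278 in the cKO and 4.38% ± 0.265 in controls, and Sv2b 1.12% ± 0.169 in the cKO and 3.75% ± 0.163 in controls.

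**Figure D3:**
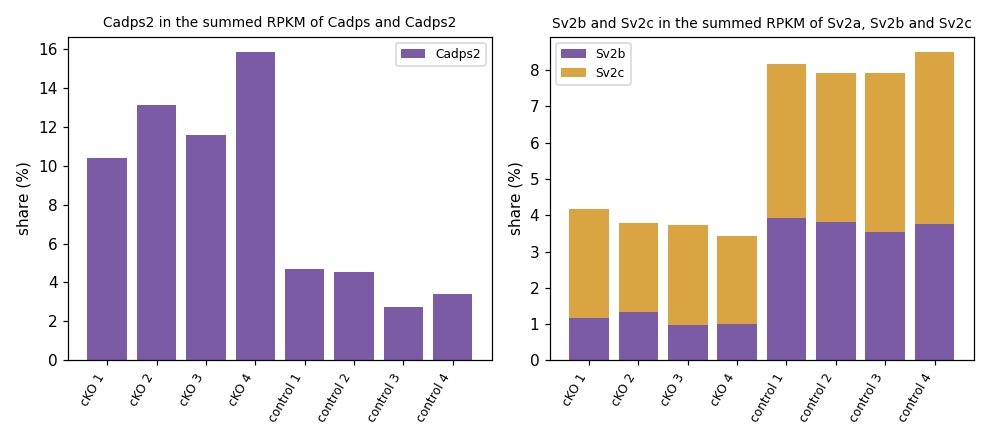
Share of Cadps2 in the summed RPKM of Cadps and Cadps2 (left) and stacked shares of Sv2b and Sv2c in the summed RPKM of the 3 Sv2 genes (right), in percent, with a bar for each of the 4 cKO and 4 control libraries. Cadps2 lies between 10.4% and 15.8% in the cKO and between 2.75% and 4.71% in controls, and Sv2b lies between 0.974% and 1.34% in the cKO and between 3.53% and 3.92% in controls.

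Cadps2, Sv2b and Sv2c had the largest changes among the release genes above a mean control value of 100. The sequences before the starts of these 3 genes are given to show the composition of their promoters. They run from 250 bases before to 50 bases after the annotated start (RefSeq, GRCm38.p6), 5′ to 3′ on the gene's strand, at chr6:23839372-23839671 (minus strand) for Cadps2, chr7:75309213-75309512 (minus strand) for Sv2b, the most upstream of its 4 listed starts, and chr13:96132528-96132827 (minus strand) for Sv2c. A window was found for 45 of the 60 genes. Capitals mark TAAT or its reverse complement ATTA, the core of many homeodomain sites.
Cadps2: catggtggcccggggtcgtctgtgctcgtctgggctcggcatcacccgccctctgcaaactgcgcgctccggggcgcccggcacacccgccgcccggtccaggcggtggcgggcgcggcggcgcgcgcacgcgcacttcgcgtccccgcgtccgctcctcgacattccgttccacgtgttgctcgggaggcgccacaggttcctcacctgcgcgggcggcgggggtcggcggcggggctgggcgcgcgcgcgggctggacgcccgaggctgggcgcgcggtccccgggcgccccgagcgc
Sv2b: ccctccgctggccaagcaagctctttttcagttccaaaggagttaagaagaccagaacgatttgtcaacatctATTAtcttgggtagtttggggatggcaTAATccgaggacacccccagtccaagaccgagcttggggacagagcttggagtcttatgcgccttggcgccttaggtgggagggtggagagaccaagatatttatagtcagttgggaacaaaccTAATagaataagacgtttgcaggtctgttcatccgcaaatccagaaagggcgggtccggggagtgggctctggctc
Sv2c: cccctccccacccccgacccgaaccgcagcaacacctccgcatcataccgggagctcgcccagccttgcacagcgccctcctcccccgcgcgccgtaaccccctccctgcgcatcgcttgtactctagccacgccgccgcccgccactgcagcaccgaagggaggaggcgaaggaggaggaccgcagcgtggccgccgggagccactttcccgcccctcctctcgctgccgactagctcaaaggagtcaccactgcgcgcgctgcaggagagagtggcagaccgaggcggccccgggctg
The Cadps2 window has 79.7% G and C with 54 CG dinucleotides, a higher share of G and C than 98.8% of the 32851 windows in the set, and it holds no TAAT on either strand. The Sv2c window, at 71.7% G and C with 32 CG dinucleotides, holds none either. The Sv2b window differs, with 51.3% G and C, close to the median of 52.7% over all windows, 10 CG dinucleotides and 3 occurrences. TAAT occurs on either strand in 58% of all windows of this length, so its presence or absence here is a description of these letters alone.

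Cadps2 lies on chromosome 6 (23262773 to 23839421, minus strand, GENCODE annotation of GRCm38), Sv2b on chromosome 7 (75114894 to 75309262, minus strand) and Sv2c on chromosome 13 (95954594 to 96132577, minus strand). Of the 3 fallen synaptotagmin genes, Syt4 lies on chromosome 18 (31437808 to 31447406, minus strand), Syt16 on chromosome 12 (73997661 to 74273267, plus strand) and Syt12 on chromosome 19 (4445908 to 4477447, minus strand). Each of these 6 overlaps at least 1 annotated gene on the opposite strand, none of which was tested. These overlaps are of whole gene spans, introns included, so they do not show that counted sequence is shared. On the same strand, Cadps2 also overlaps the protein-coding genes Rnf133 and Rnf148, and Sv2c overlaps Gm20075. The counting options of the reads are not stated in the labels. Any reads from shared sequence therefore cannot be assigned to the gene or to the overlapping gene.

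Of 16 synaptotagmin genes, 3 fell (18.8%) and none rose in limma, against 3.78% and 2.87% of all genes. At an unadjusted p under 0.05 there were 4 lower and 2 higher, against 18.7% of all genes in either direction. Syt4, an activity-regulated gene whose protein sits on dense core and other secretory vesicles, had values of 6358, 6233, 6731 and 5639 in the cKO, against 8956, 8234, 9008 and 8988 in controls. The groups were separate, with a cKO mean of 0.709 of the control mean and a log2 fold change of -0.50 ± 0.05 (SE, limma adjusted p = 0.000133). Per length Syt4 fell to 65.9 ± 5.08 RPKM in the cKO, against 93.5 ± 4.75 RPKM in controls, which is the largest difference in level among the 60 genes. It held 17.7% ± 1.21 of the summed synaptotagmin RPKM in the cKO and 22.5% ± 0.984 in controls.

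Syt16 encodes an atypical synaptotagmin without a transmembrane segment. Its values were 2011, 2128, 2072 and 1986 in the cKO, against 2257, 2416, 2311 and 2344 in controls, a small difference without overlap. The log2 fold change was -0.19 ± 0.04 (SE, limma adjusted p = 0.0108). The call was lost without the 2 libraries lowest in pallial markers (log2 fold change -0.18, limma adjusted p = 0.0842) and in the authors' deposited table (-0.19, adjusted p = 0.0759), with a difference about as large. Syt12, a synaptic vesicle protein that does not bind calcium, was a low transcript, with values of 28, 27, 35 and 20 in the cKO, against 39, 44, 48 and 50 in controls. Its log2 fold change was -0.72 ± 0.19 (limma adjusted p = 0.0419), and it passed in only 2 of the 8 fits that omitted a library, those without cKO replicate 3 and without control replicate 1. Without replicate 1, 2 or 4 of the cKO, or without control replicate 2, 3 or 4, the limma adjusted p lay between 0.0712 and 0.156. It was also lost with the removed direction of variation as a covariate (limma adjusted p = 0.0896).

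**Figure D4:**
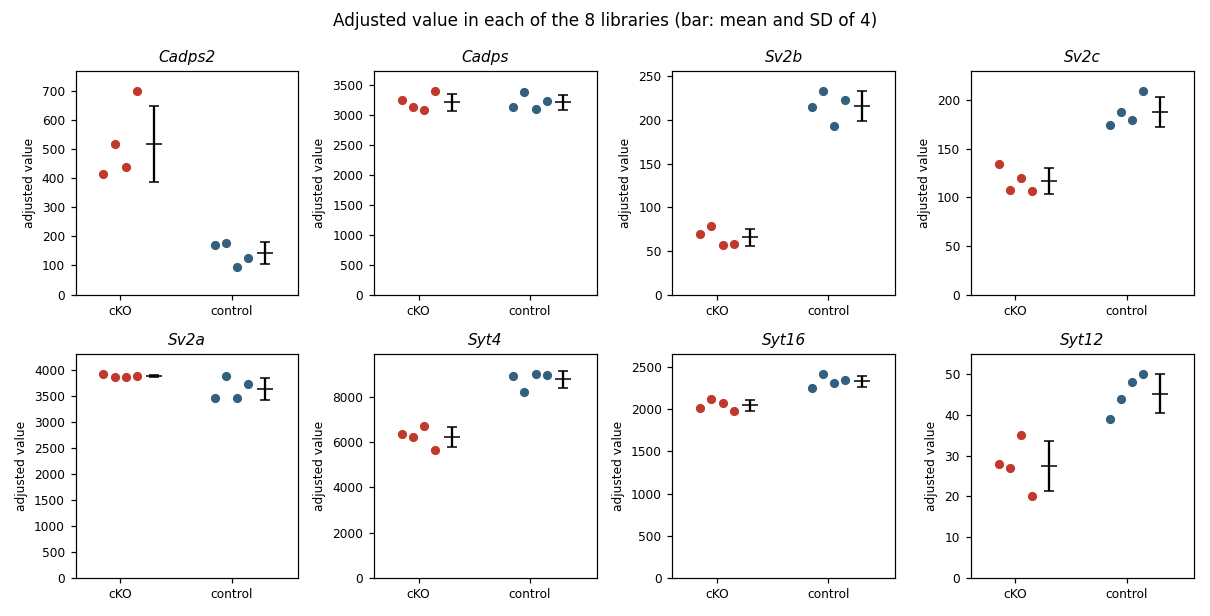
Adjusted value in each of the 4 cKO (red) and 4 control (blue) libraries, with mean and SD, for the 6 called genes and for the paralogues Cadps and Sv2a. The groups do not overlap in the 6 called genes, and cKO replicate 4 has the highest Cadps2 value, 698.

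The other 13 synaptotagmin genes were not called. Syt1 had a log2 fold change of -0.06 with a 95% interval of -0.17 to 0.06, Syt5 of -0.07 (-0.18 to 0.05) and Syt7, the slow calcium sensor of asynchronous release, of -0.07 (-0.16 to 0.03). Syt6, at 51.7 ± 2.25 RPKM in the cKO and 51.1 ± 3.02 RPKM in controls, had 0.02 (-0.09 to 0.14). Syt11, which restrains vesicle recycling and was the highest synaptotagmin in the cKO at 86.2 ± 1.83 RPKM, against 92.6 ± 3.87 RPKM in controls, did not overlap between groups but missed the threshold (log2 fold change -0.09, limma adjusted p = 0.152). Syt3 had the highest fold change of the family, 0.20 (0.03 to 0.36, limma adjusted p = 0.182). Syt2, a fast calcium sensor gene of low level here, had -0.39 with a wide interval of -1.07 to 0.29.

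The core SNARE genes did not pass the test. Of 14 syntaxin, 4 SNAP and 7 VAMP genes, none was called by limma or in the authors' deposited table. At an unadjusted p under 0.05 there were 4, against 18.7% of all genes. Among those were Stx4a, Snap25 and Vamp8. Stx1a, a plasma membrane syntaxin of synapses, had a log2 fold change of -0.03 (95% interval -0.15 to 0.10). Snap25 had values of 2523, 2815, 2841 and 2881 in the cKO, against 2917, 3326, 2946 and 2972 in controls. They did not overlap, at a log2 fold change of -0.14 (-0.26 to -0.02, limma adjusted p = 0.191). Vamp2 was at -0.03 (-0.13 to 0.07) and Snap47 at 0.00 (-0.09 to 0.09). Vamp8, an endosomal and secretory SNARE of many non-neuronal cells, had the highest fold change of these genes at 0.44 (0.03 to 0.84, limma adjusted p = 0.223), with mean values of 51.8 ± 4.79 in the cKO and 38.8 ± 9.57 in controls.

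Neither complexin gene passed limma or the authors' table, with 1 at an unadjusted p under 0.05, where 18.7% of all genes were. Cplx1 had a log2 fold change of 0.01 (95% interval -0.10 to 0.13), and Cplx2 of -0.20 (-0.36 to -0.04, limma adjusted p = 0.143), which passed without control replicate 1. Per length the pair were close in controls, Cplx1 at 35.1 ± 1.38 RPKM in the cKO and 35.0 ± 2.03 RPKM in controls, and Cplx2 at 30.1 ± 1.33 RPKM in the cKO and 34.8 ± 3.46 RPKM in controls. None of the 3 synapsin genes passed limma or the authors' table, with 1, Syn2, at an unadjusted p under 0.05 (log2 fold change -0.18, -0.33 to -0.02). Syn1, the most abundant synapsin, was at 35.3 ± 1.75 RPKM in the cKO and 35.1 ± 1.53 RPKM in controls. Snap91, which the rule matched by its symbol, is not a SNARE but the clathrin assembly protein AP180 of vesicle recycling, and it had a log2 fold change of 0.05 (-0.01 to 0.12).

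Besides the 5 striatal markers named above, markers of some other cells moved between the groups. Over all genes tested, 2.87% rose and 3.78% fell. Of 10 microglial markers 9 rose and none fell, none was at 0 in any library, and their summed level was 57.3 to 76.3 RPKM in the cKO and 34.6 to 41.4 RPKM in controls. Of 6 markers of cholinergic neurons 5 fell, Chat being at 0 in at least 1 library, with sums of 3.40 to 7.20 RPKM in the cKO and 7.81 to 12.9 RPKM in controls. Of 8 genes that mark interneurons born in the medial ganglionic eminence 3 fell and 1 rose, with sums of 123 to 161 RPKM in the cKO and 174 to 207 RPKM in controls. Of 5 erythroid genes 3 rose, of which 2 had identical values in every library and are 1 measurement, and the sums, which hold it for both genes, were 558 to 779 RPKM in the cKO and 393 to 616 RPKM in controls. The part of these cells in the differences of Sv2b, Sv2c, Syt4, Vamp8 and the other genes was not tested. None of the 11 pallial markers passed limma. Nor did any of 5 oligodendrocyte lineage markers, 5 astrocyte markers or 6 markers of endothelium and pericytes.

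Other genes of exocytosis were read from a list of 106 names, of which 103 were tested. In the cKO 5 rose and 7 fell, or 4.85% and 6.8% of the 103, against 2.87% and 3.78% of all genes. The authors' deposited table called 2 higher and 6 lower, against 6.55% of all its genes called in either direction. Of 21 genes of Rab3 and Rab27 and their effectors, 1 rose and 3 fell. Rph3a, the gene of the Rab3 effector rabphilin, had values of 3134, 2717, 3279 and 3115 in the cKO, against 5488, 4672, 5314 and 5181 in controls. All cKO values were well below the controls, at a log2 fold change of -0.76 ± 0.06 (SE, limma adjusted p = 2.09e-05). Sytl5, a Rab27 effector gene, rose, with values of 368, 331, 304 and 303 in the cKO, against 218, 199, 216 and 222 in controls (log2 fold change 0.61 ± 0.08, limma adjusted p = 0.000689). Doc2b, which encodes a calcium sensor with C2 domains, had a log2 fold change of -0.29 ± 0.06 and the GTPase gene Rab3b of -0.32 ± 0.07, and each call was lost without control replicate 4, at log2 fold changes of -0.27 and -0.32 (limma adjusted p = 0.0528 and 0.0656).

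Of 13 genes of the synaptic vesicle membrane, none rose and 1 fell, where 3.78% of all genes fell. That was Synpr, the gene of synaptoporin, with values of 613, 635, 749 and 499 in the cKO, against 1378, 1175, 1188 and 1329 in controls (log2 fold change -1.03 ± 0.10, limma adjusted p = 8.61e-05). Its relative Syp, the synaptophysin gene, had -0.12 ± 0.04 (limma adjusted p = 0.102). Of 16 active zone genes, 3 rose and 1 fell, against 2.87% and 3.78% of all genes. Lin7c and Lin7a, paralogues that encode scaffold proteins with a PDZ domain, differed in direction, Lin7c at a log2 fold change of 0.20 ± 0.04 and Lin7a at -0.34 ± 0.08. The other risers were Apba1, which encodes the adaptor protein Mint1 (0.17 ± 0.04), and Erc2, an active zone scaffold gene (0.20 ± 0.05). Of 16 genes of dense core vesicles, Pcsk2, the prohormone convertase gene, rose (0.21 ± 0.05), and Pam, the peptide amidating enzyme gene (-0.24 ± 0.06), and Pcsk1n, an inhibitor gene of prohormone convertase (-0.26 ± 0.06), fell. The limma adjusted p of these 7 genes lay between 0.00689 and 0.0356. Apart from Lin7c, these calls depended on single libraries, with limma adjusted p up to 0.109 when a library was omitted. Apba1 passed only without cKO replicate 4 and Lin7a only without cKO replicate 1 or control replicate 2, and Apba1 also missed it when values were scaled to the library sum (limma adjusted p = 0.0653) or by the median of ratios (0.0681). Erc2 missed the threshold without replicate 2 or 4 of the cKO or 1, 3 or 4 of the controls, and Pam without replicate 3 or 4 of the cKO or 1, 2 or 4 of the controls. Pcsk1n missed it without replicate 4 of the cKO or 1, 2 or 3 of the controls, and Pcsk2 without replicate 1 or 3 of the cKO or 2, 3 or 4 of the controls. Without the 2 libraries lowest in pallial markers all 7 missed the threshold, Lin7c at a log2 fold change of 0.18 (limma adjusted p = 0.0769). The limma adjusted p of the others in that fit lay between 0.059 for Pam and 0.176 for Erc2. The authors' deposited table called Lin7c, Lin7a and Pcsk1n, but not Apba1, Erc2, Pam or Pcsk2 (adjusted p = 0.17, 0.122, 0.0563 and 0.0792). With the removed direction of variation as a covariate Apba1, Erc2 and Pcsk2 also missed the threshold (limma adjusted p = 0.0754, 0.064 and 0.0518). None of 17 SNARE regulators, such as Nsf, and none of 20 vesicle recycling genes passed limma or the authors' table. At an unadjusted p under 0.05 there were 4 and 5 of these, against 18.7% of all genes.

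**Figure D5:**
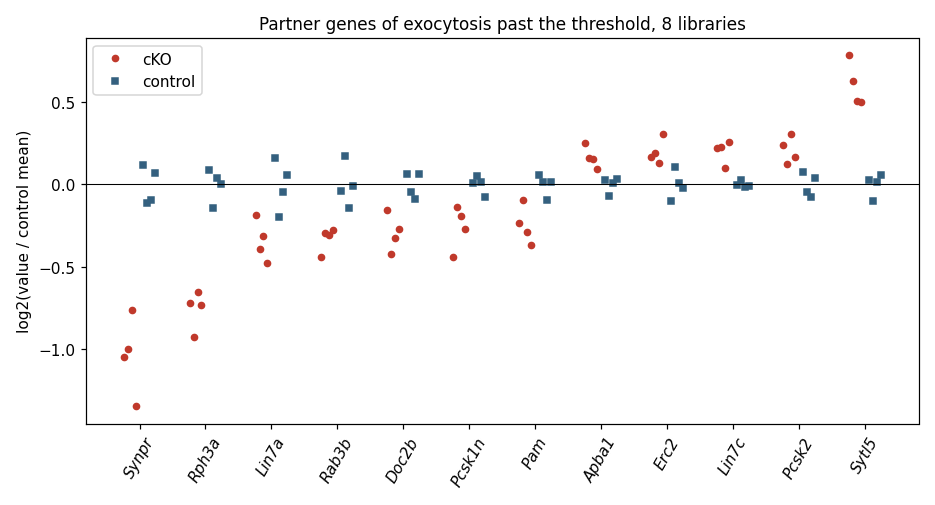
Log2 of the adjusted value over the control mean in each cKO (red circles) and control (blue squares) library, for the 12 partner genes of exocytosis that passed the test, ordered by fold change. Synpr and Rph3a lie lowest in the cKO, at fitted log2 fold changes of -1.03 and -0.76, and Sytl5 highest at 0.61.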

How the data were processed

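Polyadenylated RNA of 8 LGE libraries, 4 cKO and 4 control, was analysed from 1 table of 15705 genes. STAR, featureCounts and edgeR on build mm10 are named in the submitters' processing notes, without versions or counting options. The columns that the authors deposited as raw hold a score, not read counts: their upper quartiles lay between 1624 and 1635. Over genes with a mean value above 1000, the smallest singular value of the 8 libraries in natural log values was 0.000241, against 0.0433 for the next. That is the trace of 1 unwanted factor removed within groups. The deposited RPKM are these values divided by library sum and gene length, per the values. The log2 fold changes and p-values that the authors deposited served as an alternative. The sign of that fold change is cKO over control.

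Because the file holds no counts, the normalized-value test of the plan applied. Values were taken as log2(value + 1), 15698 genes that reached a value of 1 in 4 libraries or more entered the fit, and limma 3.58.1 (mean trend, R 4.3.3) gave p-values adjusted by Benjamini-Hochberg, threshold 0.05. Fold changes on this scale understate the change of low genes. The limma p-values set the difference between groups against the spread between these libraries. With 1 unwanted factor removed from that spread, they are too small to a degree. With the removed direction of variation as a covariate 749 genes were called, against 1045 without it. The genes, the lists of partner and marker genes and the alternatives were chosen with earlier results of these data known. Genes with values in every library are those past the threshold, Cadps, and some named after their values were seen (Unc13c, Sv2a, Snap25). Also named are the highest control RPKM of each role and up to 4 partner genes of smallest p per list. Symbols of 59 of the 60 genes were found in the annotation. Some genes are counted in these totals but not reported here by name, and 1 is not drawn.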

Additional observations from a re-analysis of the deposited data

Results flagged for a closer look

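In 5 of 120 groups of 4 values of the 60 genes, 1 library lay far from the other 3, and chance flags about 1 in 20 groups. Snap25 had its highest control value, 3326, in control replicate 2. Syt13, in the same library, stood at 252, above the other controls. Syt4 was lowest among controls in that library as well, at 8234, still above every cKO value. In the cKO, Stx3 stood at 380 in replicate 4, above the other cKO libraries. Stx7 stood at 4734 in cKO replicate 1, below the other cKO libraries.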

How the results depend on the processing

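Cadps2, Sv2b, Sv2c and Syt4 kept their direction and their call in all 17 alternatives run, with log2 fold changes of 1.54 to 1.99, -1.80 to -1.51, -0.75 to -0.62 and -0.54 to -0.44. Syt16 lost its call in 2 alternatives and Syt12 in 9 of 16, as it was not tested with a minimum mean of 100. Leaving out 1 library at a time gave 658 to 959 called genes, 1 risen and 4 to 6 fallen vesicle release genes, 2 to 5 risen and 3 to 8 fallen partner genes, and a median log2 fold change of the 60 genes of -0.06 to -0.02. Without the 2 libraries lowest in pallial markers 608 genes were called, and 1 partner gene rose and 4 fell, with Stx3 gained and Syt12 and Syt16 lost among the 60. With the removed direction of variation as a covariate 2 partner genes rose, and 2 rose in the authors' deposited table. The causes were not tested. Same-numbered libraries had correlations of 0.23, -0.027, -0.109 and -0.534 in their deviations from the group means. Taken after 1 unwanted factor had been removed and on centred values, these cannot decide whether replicate numbers pair the samples. With the replicate block 1199 genes were called and Syt12 was lost (limma adjusted p = 0.0584). No called fold change reversed among the vesicle release and partner genes for which alternatives were run. Genes under a value of about 100, such as Syt12, Syt15 and Stx11, have intervals too wide to show a small difference.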

Other observations

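The tested neighbours of the 6 called vesicle release genes were read from the annotation, and those named here were chosen after their values were seen. Of these 12 neighbours, 3 passed limma, against 6.66% of all genes tested. The neighbours of Sv2c and of Syt4 were among those that did not pass. Slco3a1, 560.1 kb from Sv2b on the same strand, had a log2 fold change of -0.52 (limma adjusted p = 9.85e-05). The pseudogene 1700086L19Rik, 11 kb from Syt16, had -0.56 (limma adjusted p = 0.00528), and Pcx, the pyruvate carboxylase gene, 33 kb from Syt12, had -0.21 (limma adjusted p = 0.0288). The neighbours of Cadps2 did not pass, with Aass at 0.55 (limma adjusted p = 0.392) and Iqub at 0.44 (limma adjusted p = 0.0548).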
